A study of Mus musculus with 12 samples.

Results

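The genes for glutamate and GABA receptor subunits were examined in a list of H3K27me3 sites from mouse embryo fibroblasts. The set held the autosomal protein-coding genes whose symbols mark an AMPA (Gria), kainate (Grik), delta (Grid), NMDA (Grin) or metabotropic (Grm) glutamate receptor or a GABA-A receptor subunit (Gabr). It counted 41 of the 20807 autosomal protein-coding genes of the annotation and fell into 12 classes. Subunits encoded on chromosome X were outside the rule. Of the 41 genes, 38 had an H3K27me3 site within 1 kb of a transcription start site (TSS), that is 92.7%, against 26.9% of all autosomal protein-coding genes.

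H3K27me3 is the trimethylation of lysine 27 of histone H3, which Polycomb repressive complex PRC2 places and which is known from genes that are kept silent outside their own lineage. Ionotropic glutamate receptors are cation channels that carry fast excitatory transmission, and metabotropic glutamate receptors are G protein-coupled. GABA-A receptors are chloride channels that carry fast inhibition. Both kinds are best known from neurons, and fibroblasts are not a cell type in which they are usually studied.

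The cells were immortalised mouse embryo fibroblasts (iMEF) in which exon 4 of the endogenous Ash2l is deleted and an FKBP-ASH2L fusion protein, introduced by a lentivirus, stands in for it. ASH2L is a subunit of the complexes that methylate lysine 4 of histone H3, and dTAG directs the fusion to degradation. H3K27me3 was measured by ChIP-seq in untreated cells and in cells given dTAG for 16 h, 24 h and 48 h, with 2 libraries in each of these 4 groups. Input chromatin that had not been precipitated was sequenced for the untreated cells and for the 48 h dTAG cells, again as 2 libraries each. All groups share the deletion and the fusion, and most of the study was done in a single clone. The study has 2 H3K27me3 experiments, and only the second was used here. The list used here gives 101389 sites by chromosome, start and end, pooled over the samples. It has no value for a library, so from it the depth of a library and the replicate error could not be given, and no receptor gene was compared between untreated and dTAG-treated cells. The study's separate list of sites that changed with time was not used here. Positions alone do not show which genes are transcribed, and the labelled cell type could not be checked against markers.

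The promoters differed widely in their CpG content, and 6 are shown because they span that range with and without a site. Each runs from 250 bases before to 50 bases after a RefSeq start (GRCm38.p6), 5′ to 3′ along the gene, with CpG dinucleotides in capitals.
Grin1 (chr2:25319138-25319437, minus strand): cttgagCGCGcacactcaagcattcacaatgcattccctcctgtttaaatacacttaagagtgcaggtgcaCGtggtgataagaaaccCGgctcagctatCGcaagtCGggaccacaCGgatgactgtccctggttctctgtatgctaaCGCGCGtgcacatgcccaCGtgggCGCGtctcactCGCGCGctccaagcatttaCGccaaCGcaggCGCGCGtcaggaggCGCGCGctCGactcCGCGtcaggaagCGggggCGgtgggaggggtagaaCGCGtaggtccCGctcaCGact
Grik3 (chr4:125490446-125490745, plus strand): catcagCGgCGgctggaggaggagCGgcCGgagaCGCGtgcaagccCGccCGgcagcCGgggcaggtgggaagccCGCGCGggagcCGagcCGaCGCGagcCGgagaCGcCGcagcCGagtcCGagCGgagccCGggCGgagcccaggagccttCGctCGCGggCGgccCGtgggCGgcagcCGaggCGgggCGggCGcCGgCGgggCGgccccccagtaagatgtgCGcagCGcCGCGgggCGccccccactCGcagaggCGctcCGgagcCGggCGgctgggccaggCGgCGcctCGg
Gria2 (chr3:80802786-80803085, minus strand): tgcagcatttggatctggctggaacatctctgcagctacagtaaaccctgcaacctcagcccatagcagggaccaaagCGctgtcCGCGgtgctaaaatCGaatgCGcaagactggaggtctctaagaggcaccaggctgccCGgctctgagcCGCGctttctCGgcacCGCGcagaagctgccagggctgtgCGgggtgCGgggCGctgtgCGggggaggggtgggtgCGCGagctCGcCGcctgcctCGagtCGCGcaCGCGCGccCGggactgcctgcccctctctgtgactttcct
Gabrg1 (chr5:70842568-70842867, minus strand): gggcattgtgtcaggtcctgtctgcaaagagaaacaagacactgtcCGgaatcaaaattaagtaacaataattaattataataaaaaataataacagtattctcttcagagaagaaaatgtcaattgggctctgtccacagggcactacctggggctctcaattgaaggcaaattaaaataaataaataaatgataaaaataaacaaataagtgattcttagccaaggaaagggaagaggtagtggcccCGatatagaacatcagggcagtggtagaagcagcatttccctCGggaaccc
Grik5 (chr7:25072320-25072619, minus strand): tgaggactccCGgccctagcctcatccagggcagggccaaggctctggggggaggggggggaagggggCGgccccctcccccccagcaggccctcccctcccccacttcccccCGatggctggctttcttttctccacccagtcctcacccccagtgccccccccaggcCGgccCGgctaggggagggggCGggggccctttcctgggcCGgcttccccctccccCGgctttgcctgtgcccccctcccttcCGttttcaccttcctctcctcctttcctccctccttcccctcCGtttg
Gabra6 (chr11:42321023-42321322, minus strand): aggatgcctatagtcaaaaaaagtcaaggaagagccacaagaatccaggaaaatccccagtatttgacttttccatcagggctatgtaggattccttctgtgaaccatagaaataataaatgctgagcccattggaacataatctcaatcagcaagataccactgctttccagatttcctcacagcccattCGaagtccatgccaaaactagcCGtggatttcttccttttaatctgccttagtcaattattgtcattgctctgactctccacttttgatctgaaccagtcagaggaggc

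The promoter of Grin1, which encodes the obligatory NMDA receptor subunit, held 33 CpGs and lay wholly in a site. The promoter of Grik3, a kainate receptor subunit gene, held 50 CpGs, the most among the receptor promoters, and also lay wholly in a site. For Gria2, the AMPA receptor subunit that sets calcium permeability, 26 CpGs were counted and 38.7% of the window was covered, since the site began close to the start and ran downstream. Gabrg1, a GABA-A gamma subunit gene, lay wholly in a site with 3 CpGs. The windows of Grik5, a kainate receptor subunit gene, with 10 CpGs, and of Gabra6, the alpha subunit gene known from cerebellar granule cells, with 2 CpGs, had no covered base. RefSeq promoters were at hand for 27 of the 41 genes, and for some genes at several starts, giving 33 windows. Of these, 25 lay wholly in a site (75.8%), 3 in part and 5 not at all, whereas 16.1% of 19174 windows of all genes lay wholly in one. The receptor windows held a median of 11 CpGs, and those of all genes 14.

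Most genes of each receptor family had a site. It was 16 of 17 ionotropic glutamate receptor genes, 8 of 8 metabotropic genes and 14 of 16 GABA-A genes. The ionotropic count was 10 of 17 where the centre of the site, and not any base of it, had to be within 1 kb of a TSS. That rule was met by 18.3% of all genes. The genes it lost were Gria2, Grid1, Grin1, Grin2b, Grin2c and Grin3a, whose widest promoter sites measured 3080, 16048, 27349, 7513, 21650 and 6539 bp. The AMPA (3 of 3) and NMDA (7 of 7) classes and the metabotropic groups II (2 of 2) and III (4 of 4) were complete. The kainate and GABA-A alpha classes had 4 of 5 each and the GABA-A rho class 2 of 3. The classes hold 2 to 7 genes each, so a difference of 1 gene between classes is not read as a difference.

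The 3 genes without a promoter site lay at different distances from one. The nearest site to a TSS of Gabrr2, a rho subunit gene, was 6011 bp away, and 3.72% of the gene was covered by 3 small intronic sites. For Grik5 it was 22299 bp away and for Gabra6 98614 bp away, and neither had a covered base. No base was covered in 69.6% of all genes. At the other side of the threshold stood Gabrr3, whose widest promoter site was 586 bp, and Gabrb2, with 3 sites near its starts of which the widest was 827 bp. A rule that took sites of at least 1000 bp lost these 2 genes.

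Receptor genes are long, and long genes carry promoter sites more often. A site was found at 25.0% of all genes under 100 kb, at 37.2% of those of 100 to 300 kb and at 58.2% of those of 300 kb and more. In the same ranges the receptor genes had 15 of 18, 7 of 7 and 16 of 16. Pooled over lengths, a site was found at 26.5% of all genes that had a CpG island within 1 kb of a TSS and at 27.6% of those that had none. This differed by length. At 300 kb and more it was 278 of 443 genes with an island and 37 of 98 without. From 100 to 300 kb it was 565 of 1486 and 117 of 345, and under 100 kb 2497 of 10674 and 2109 of 7761. All 27 receptor genes with an island had a site, and so did 11 of the 14 without one. The genes without a site, Grik5, Gabra6 and Gabrr2, were all among those without an island.

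Coverage along the gene differed widely among the receptor genes. The median covered share of a receptor gene was 2.50%, with a lowest of 0% and a highest of 100%, and the median over all genes was 0%. All genes with a promoter site had a median of 30.0%, far above that of the receptor genes. They were shorter, with a median length of 22.4 kb against 138 kb. Under 100 kb the median covered share was 11.1% in the receptor genes and 0% in all genes. From 100 to 300 kb it was 2.47% and 0%, and at 300 kb and more 1.67% and 0.403%. The genes with a promoter site were not split by length. In 28 receptor genes less than 5% was covered, in 5 genes 5 to 50%, and in 8 genes at least 50%. Less than 5% was covered in 76.9% of all genes and at least 50% in 10.2%. Of the 38 receptor genes with a promoter site, 25 were covered over less than 5%, against 23.8% of all genes with a promoter site. The medians of the ionotropic glutamate, metabotropic glutamate and GABA-A families were 3.75%, 2.44% and 2.73%. With sites of at least 1000 bp they were 3.75%, 1.38% and 1.51%, in the same order. The order changed with near sites merged (3.75%, 4.09% and 2.80%) and without the 1 kb around each TSS (3.32%, 1.95% and 1.35%).

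**Figure D1:**
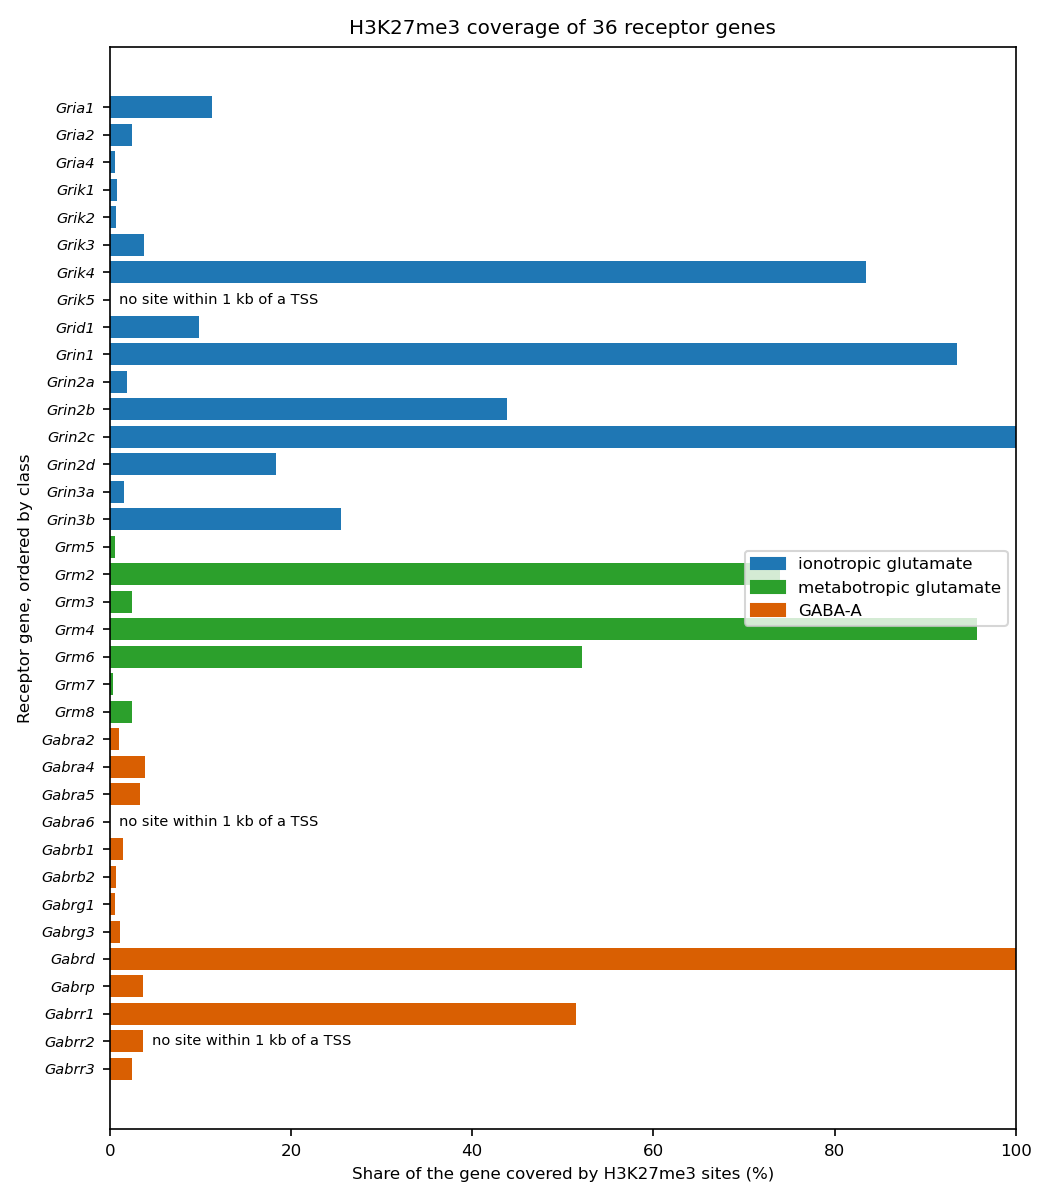
Bars give the share of each receptor gene, from annotated start to end, that lies in H3K27me3 sites (percent), with genes ordered by class and coloured by family. The plot draws 36 of the genes. Coverage reaches 100% in Grin2c and Gabrd, while most genes stay under 5%, and the 3 genes without a promoter site are labelled.

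Among the ionotropic glutamate receptors, the NMDA genes ranged most. Grin2c, a regulatory GluN2 subunit gene known from the cerebellum, lay wholly in a site of 21650 bp that also touched the neighbouring gene Fdxr. Grin1 was 93.5% covered, mainly by a site of 27349 bp, and a further site of 10801 bp reached over its end into Tmem210 and Lrrc26. Grin2b, the GluN2 subunit gene prominent early in development, was 43.9% covered by 136 sites that added up to 202 kb. Grin3b (25.5%) and Grin2d (18.4%) followed, and Grin2a, the GluN2 subunit gene prominent in the adult brain, and Grin3a were covered over 1.87% and 1.59%, with promoter sites of 6304 and 6539 bp. In Grin2d the promoter site of 3834 bp lay at an internal start and not at the outermost annotated one.

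The kainate gene Grik4 was covered over 83.5% of its 426359 bp, in 79 sites with 356 kb in sum. Together with Grin2b it held 55.5% of all covered bases in the 41 genes. The other kainate genes differed from it, with 3.75% in Grik3, whose promoter site nevertheless spanned 17558 bp, 0.797% in Grik1, 0.717% in Grik2 and 0% in Grik5. Of the AMPA genes, Gria1 was 11.3% covered in 36 sites, Gria2 2.48% and Gria4 0.616%, and their promoter sites were alike in width (2888, 3080 and 2923 bp). The delta receptor gene Grid1 had a promoter site of 16048 bp and 9.87% coverage in 41 sites.

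Metabotropic genes showed the same split. Grm4 was covered over 95.7% of 99017 bp, Grm2 over 74.0% and Grm6, the receptor gene of retinal ON bipolar cells, over 52.1%. The long genes Grm7 (0.336%) and Grm5 (0.599%) had no site other than the one at the start. Grm8 (2.42%) and Grm3 (2.47%) had 17 and 10 sites, and 1.84% and 2.06% of their bases outside the 1 kb around each TSS were covered. The site at the Grm8 start was nonetheless 11024 bp wide, and those of Grm7, Grm5 and Grm3 were 4202, 3707 and 2997 bp.

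Only Gabrd and Gabrr1 among the 16 GABA-A genes were covered over at least 50%. Gabrd, whose delta subunit occurs in extrasynaptic receptors, lay wholly in a site of 34905 bp, the widest within 1 kb of a TSS of any receptor gene, and Gabrr1 was 51.4% covered in 13 sites. The other 14 stayed under 5%, from 0% in Gabra6 to 3.90% in Gabra4. Among the alpha subunit genes, which shape the benzodiazepine response, Gabra2 was 1.01% covered with a promoter site of 3289 bp and Gabra5 3.38% with 5233 bp. Of the beta genes, which contribute to the GABA binding site, Gabrb1 was 1.51% and Gabrb2 0.724% covered. The gamma genes Gabrg1 and Gabrg3 were covered over 0.588% and 1.14%, with promoter sites of 1484 and 4676 bp. Gabrp, the pi subunit gene, had 3.68% and a site of 2117 bp, and the rho gene Gabrr3 had 2.50%.

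Coverage fell with gene length, while the width of the promoter site did not follow it. Spearman's rho of length and covered share was -0.44 over the 41 genes and -0.51 over all genes with a promoter site, and rho of length and the widest promoter site was -0.01 over the 38 genes. These are descriptions across genes, which are not replicates, and length is the denominator of the covered share. The widest promoter site had a median of 4252 bp in the receptor genes and of 4130 bp in all genes with one. It reached 10 kb in 8 of the 38, namely Grik3, Grik4, Grid1, Grin1, Grin2c, Grm4, Grm8 and Gabrd, and in 22.1% of all genes with a promoter site. All 8 had a CpG island, as did 27 of the 38 and 3340 of all 5603 genes with a promoter site. Islands were not counted for all genes with a site of 10 kb or more.

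**Figure D2:**
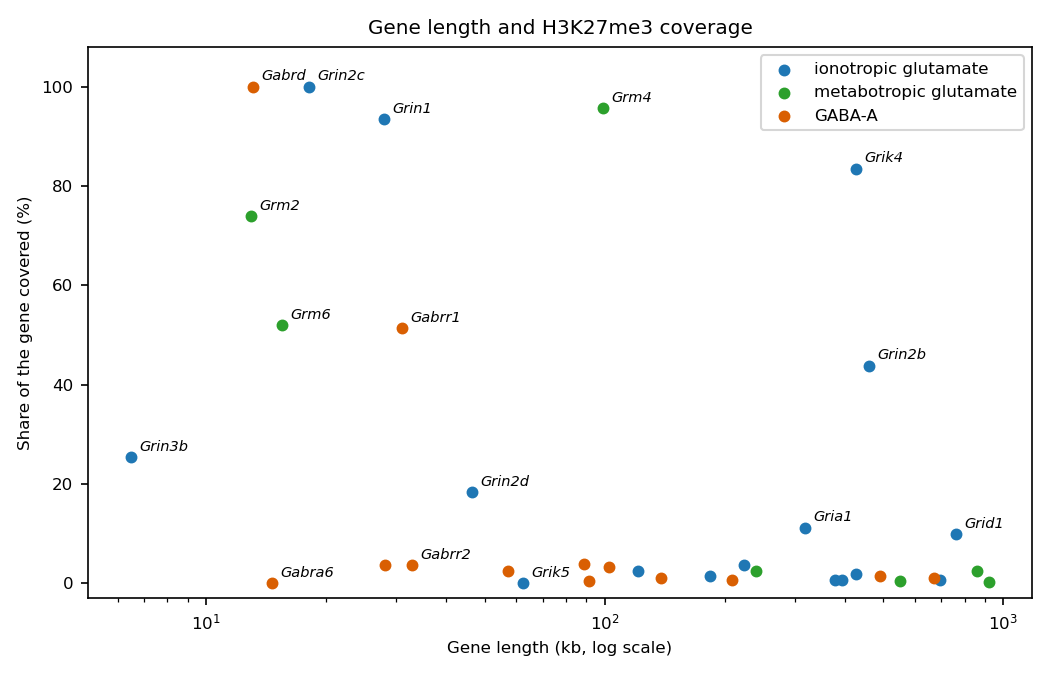
Each point is 1 of 36 receptor genes, with its length on the x axis (kb, log scale) and the covered share on the y axis (percent), coloured by family. Most genes of 100 kb and more lie near 0%, and Grik4 (83.5%) and Grin2b (43.9%) stand above them.

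At 36 of 41 genes the annotated gene start lay inside a site, against 18.3% of all genes. At 28 of these 36 the site ran farther downstream than upstream, and the same was true of 63.8% of all genes whose start lay in a site. The median reach was 2984 bp downstream and 1157 bp upstream. Gabrp, Grik2 and Gabrb1 were among the 8 that ran farther upstream. Coverage over the 41 genes was highest in the first 500 bp of the gene, at 85.6%, where the highest value over all genes was 18.7%. In the bin 20 kb upstream it was 4.29% for the receptor genes and 12.5% for all genes. In the bin 20 kb downstream it was 19.3% and 10.2%. The 8 genes covered over at least 50% had 20.6% upstream and 84.2% downstream, where the other receptor genes had 0.327% and 3.51%. These 8 were picked by their covered share, so a high downstream value follows from the choice. Their upstream value was 13.15% in the next bin toward the start.

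**Figure D3:**
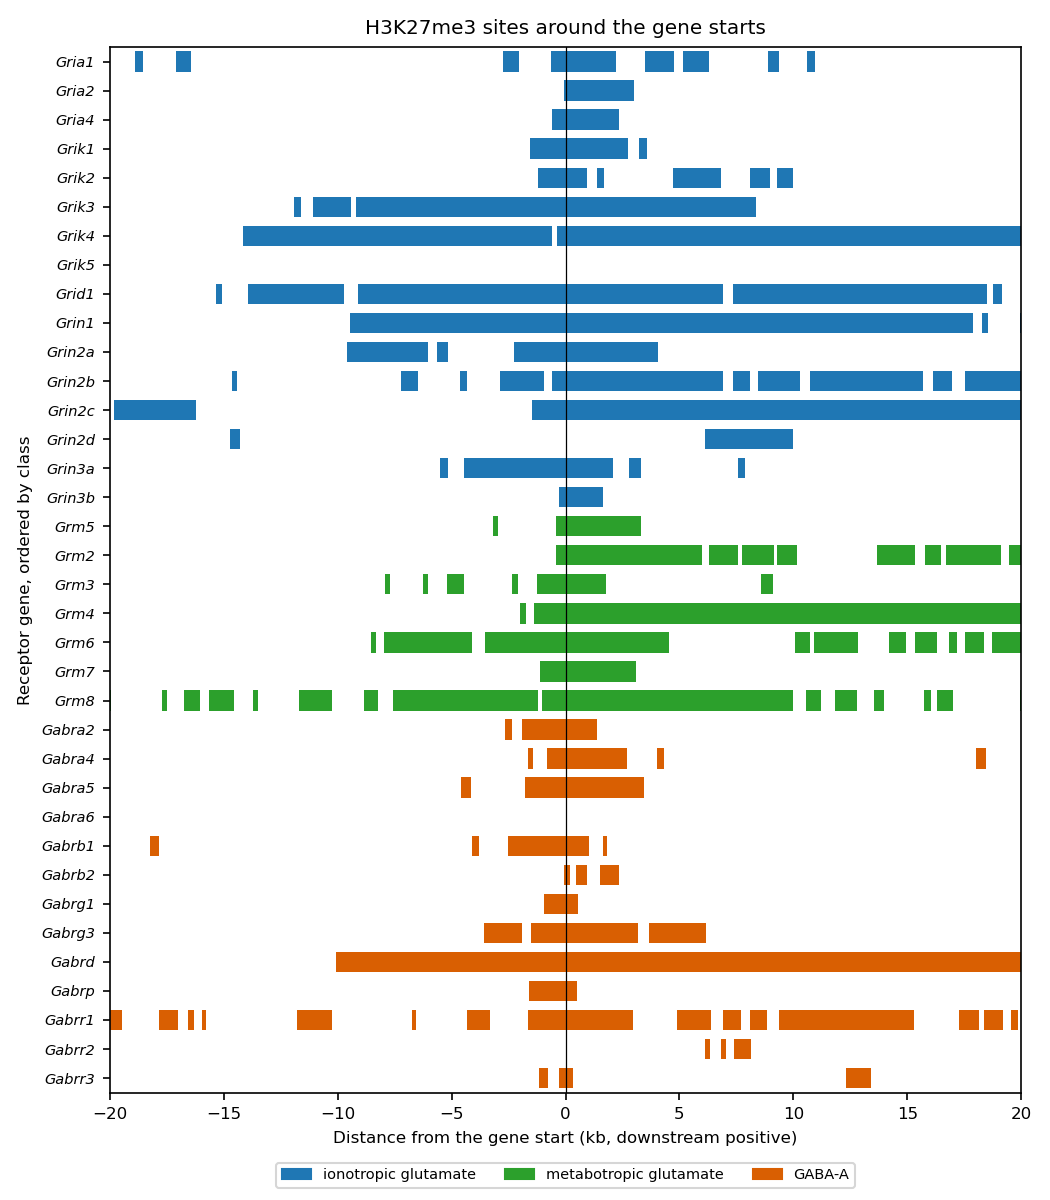
Bars are H3K27me3 sites within 20 kb of each gene start (x axis, kb, downstream positive), with 1 row for each of 36 receptor genes and colours by family. In most rows a bar crosses 0, and the rows of Grik5 and Gabra6 are empty.

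Away from the starts, 395 sites lay in the receptor genes with a median width of 697 bp, against 3536 bp at the starts. Of these, 135 lay in Grin2b and 76 in Grik4, and the 184 in the other receptor genes had a median width of 545 bp. The median over 31837 such sites in all genes was 666 bp. The centre was intronic in 95.7% of the sites in receptor genes and in 91.2% of those in all genes.

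Many GABA-A genes sit in clusters, of which 2 are described. On chromosome 5, Gabrg1, Gabra2, Gabra4 and Gabrb1 span 1398 kb, of which 1.19% was covered, and 72.5% of the covered bases lay within 5 kb of a TSS. Gabra4 and Gabrb1 are transcribed away from each other and share a site of 3536 bp, which counts for both genes. Gabrb1 has a further site of 2942 bp at another of its starts.

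The rho genes Gabrr2 and Gabrr1 on chromosome 4 form a shorter cluster, with 29.9% of 101 kb covered by 26 sites. This share was 19.9% with sites of at least 1000 bp and 49.0% with near sites merged, settings chosen after seeing the data. Here 35.1% of the space between the genes was covered, and 19.0% of the covered bases lay within 5 kb of a TSS.

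**Figure D4:**
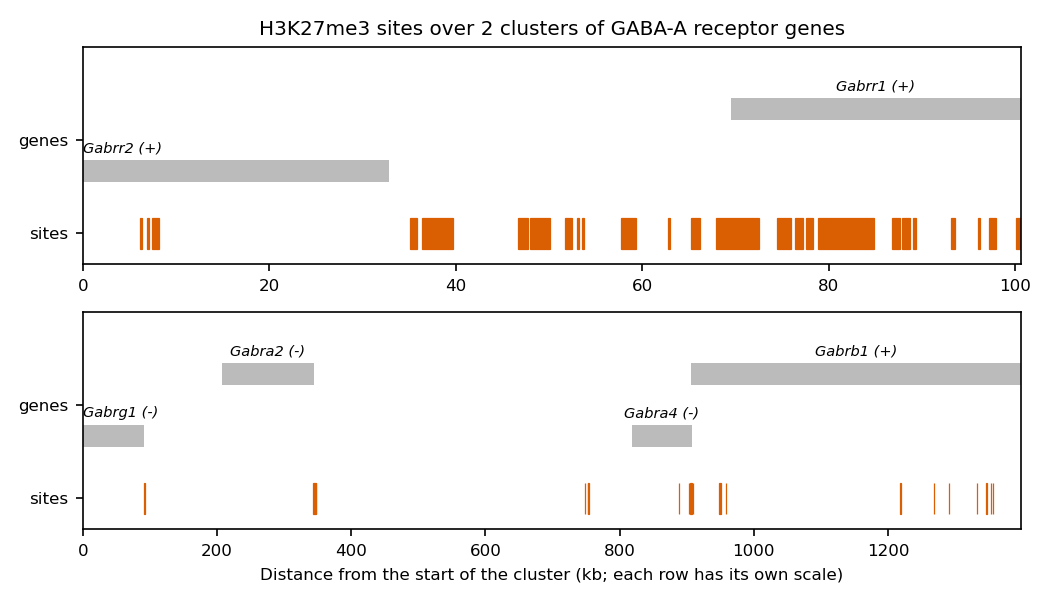
Grey bars are GABA-A receptor genes with their strand and orange bars are H3K27me3 sites, against the distance from the start of each of 2 clusters (kb, a separate scale per row). In the cluster of Gabrg1 most covered bases lie near gene starts, and sites are spread through the space between Gabrr2 and Gabrr1.

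Some receptor genes carry an RE1 element, which the repressor REST binds and which is known from neuronal genes. RE1 was searched as 21 letters, 19 of them fixed, on both strands with at most 3 mismatches. Matches occurred within 1 kb of the gene start in 4 receptor genes and in 0.577% of all genes. Those of 3 genes are shown, from 5′ to 3′ on the strand of the match in GRCm38.p6, because they lie inside and outside a site.
Grin1 (chr2:25319014-25319034, minus strand): ttcagcacctcggacagcacc
Gria2 (chr3:80802989-80803009, plus strand): tttagcaccgcggacagcgct
Gabrd (chr4:155397680-155397700, plus strand): ttcagcaccgaggacggcgga

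The Grin1 match, with 1 mismatch, lay 163 bp downstream of the gene start and inside the site. That of Gabrd, with 3 mismatches, was inside a site too, 422 bp downstream. The Gria2 match, with 2 mismatches, was centred at -164 bp from the gene start and lay outside the site. A match is a description of letters, and binding was not measured.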

How the data were processed

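The authors deposited the positions (chromosome, start, end) of the H3K27me3 sites identified over all samples, as 1 pooled list. The series has 8 H3K27me3 ChIP-seq and 4 input libraries. By the study's methods, reads were trimmed with Trim Galore and aligned with BWA to mm10, replicates were merged, and broad peaks were called with MACS. The submitters' processing notes also name SAMtools, deepTools and DESeq2. Versions, cutoffs and the joining rule are not given in the sources used here. Such a caller fixes the smallest width and joins near stretches, which bears on widths and coverage. The number of unused columns with values of single samples was 0.

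Starts were read as counted from 0, an inference from the values, and positions are printed counted from 1. Sites were set against genes and TSSs of GENCODE M21 (GRCm38) in Python 3.11.15 with numpy 2.4.6 and scipy 1.17.1. A gene had a promoter site if at least 1 bp of a site lay within 1 kb of any annotated TSS. The covered share is the share of bases from gene start to end in sites. CpG islands were maximal-scoring segments of at least 200 bp, 50% GC and an observed/expected ratio of 0.6. Members of GABA-A clusters lay less than 1 Mb apart. Interval arithmetic was tested on simulated data. No test was run, since the list holds no values of single libraries. The background is all autosomal protein-coding genes.

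The rule for named genes took every gene with a promoter site or in a cluster, and the most and least covered of each class. Of the pathway genes it took up to 4 per group, those with the widest promoter site, so their covered shares are not typical of the group. The members and lists were chosen with earlier results of these data known. The RE1 element was searched by name with a consensus of 21 letters, of which 19 were fixed and the others could be any base. That consensus did not come from the study. A version without its last letter was tried after the first matches had been seen. Results for some genes of the set and of the pathway list, and for the clusters that hold them, are not reported here.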

Additional observations from a re-analysis of the deposited data

How the results depend on the processing

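The 38 genes with a promoter site were counted in each of the windows of 500 bp, 2 kb and 3 kb, with TSSs of protein-coding transcripts only, with sites of at least 500 bp, after merging of sites closer than 3000 bp and with starts counted from 1, while the share over all genes moved between 24.7% and 33.5%. No receptor gene lay in a region repeated by a genome patch. The count was 36 with the gene start only (24.2% of all genes), 36 with sites of at least 1000 bp (22.6%) and 29 (18.3%) under the rule that asks for the centre of the site inside the window, which left 10 of 17 ionotropic glutamate receptor genes. The median covered share ranged from 1.77% with sites of at least 1000 bp to 3.38% with merging, and was 1.84% without the 1 kb around each TSS. Chosen after seeing the data, the same settings took coverage of the rho gene cluster to 19.9% and 49.0%. The RE1 search without the last letter of the motif, tried after the first matches had been seen, found the same 4 receptor genes, and 0.827% of all genes in place of 0.577%. No paired analysis was possible because the deposited list holds no value per library. The list used gives neither depth nor replicate error, and the 12 classes are small.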

Other observations

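Among genes that work with these receptors, 34 of 55 (61.8%) had a promoter site, against 26.9% of all genes. At least 50% was covered in 18 of the 55 and in 10.2% of all genes. The 55 fall into 5 groups that form GABA-B receptors, make and load the transmitters, transport them, assist the channels or anchor them. Of the 10 genes of synthesis and vesicular loading 8 had one, with the vesicular GABA transporter gene Slc32a1 wholly covered and a site of 65809 bp, and the GABA-synthesising Gad1 84.0% and Gad2 12.9% covered. Of the 9 plasma membrane transporters 6 had one, among them the GABA transporter gene Slc6a13 (92.5% covered). Of the 14 auxiliary subunit genes 9 had one, Shisa7 being wholly covered. Cacng2 had no site within 1 kb of a TSS although 91.0% of it was covered. Of the 20 scaffold and anchoring genes 10 had one, among them Grip2 (83.3%), Shank1 (96.1%) and Shank3 (88.7%), while Dlg4, Homer1 and the gephyrin gene Gphn had none. Genes with a site were named for its width. The median covered share of the 20 was 0.152%, and 10 of them had no covered base. Of the GABA-B receptor genes Gabbr2 was 59.3% covered and Gabbr1 had no site. The difference from the receptor genes was not tested.

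Glycine, nicotinic and 5-HT3 receptor genes, related channels, had a promoter site in 17 of 21 (81.0%), and potassium channel genes in 79 of 92 (85.9%). The share over all genes was 26.9%. The median covered shares of these 2 lists were 32.8% and 37.9%, beside 2.50% in the glutamate and GABA receptor genes and 0% in all genes. Their median lengths were 18.4 kb and 32.2 kb, beside 138 kb, and the part of length in this was not tested. The 10 glutamate and GABA receptor genes under 35 kb had a median covered share of 51.7%, and all genes under 35 kb 0%.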
